A study of Arabidopsis thaliana with 2 samples.

Results

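MiR164 target transcripts and leaf senescence genes of Arabidopsis thaliana were compared between ago1-27 and wild-type samples labelled as flower buds. The group was defined by gene identifier as 10 genes: the NAC transcription factor genes NAC092 (also called ORE1), NAC1, CUC1 and CUC2, all targets of the microRNA miR164, the senescence regulator NAP, and the senescence-associated genes SAG12, SAG13, SAG29, BFN1 and SGR1. The deposited table of 6791 genes held 6 of these 10, namely NAC092, NAC1, CUC1, CUC2, NAP and SAG13. SAG12, SAG29, BFN1 and SGR1 had no row, so no level and no direction can be given for them.

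The ago1-27 plants, whose weak allele reduces but does not abolish ARGONAUTE1 (AGO1) function, were set against wild-type plants. AGO1 loads most plant microRNAs. The accession of either line is not given in the labels. All plants grew in soil at 20 °C under 16 h of light and 8 h of dark, and total RNA of tissue labelled as flower buds was sequenced as 50-nt single-end reads without strand information. Marker levels go against this label in part: in wild type the floral identity genes AP1 and LFY were at 0.0779 and 0.151 RPKM, about 1.2 and 2.3 reads in an average library, while the leaf gene RCA (Rubisco activase) was at 5341 RPKM. The floral gene SEP4 was at 12.5 RPKM in wild type. The labels state 3 replicates per genotype without saying what was replicated, but the table gives 1 value per genotype, in RPKM (reads scaled to transcript length and to the number of mapped reads). No difference below therefore has an SD, a replicate check or a p-value.

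MiR164 guides AGO1 to the messenger RNAs of a small set of NAC factors, which are then cut or held back from translation. Among these, CUC1 and CUC2 set the boundaries between organs, NAC1 acts in auxin-dependent lateral root growth, and NAC092 drives age-dependent leaf senescence. NAP is another NAC activator of leaf senescence. In ageing leaves these regulators turn on genes for chlorophyll breakdown, nucleases, proteases and transporters, several of which are used as senescence markers.

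The mature miR164 sequences are shown first because the pairing of each target with them is compared with its level. In the TAIR10.1 genome, miR164a lies at chr2:19520770-19520790, miR164b-5p at chr5:287586-287606 and miR164c-5p at chr5:9852684-9852704, all on the plus strand. They are written 5′ to 3′ as DNA, with the seed, bases 2 to 8, in capitals.
miR164a: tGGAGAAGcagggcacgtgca
miR164b-5p: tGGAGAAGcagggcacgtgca
miR164c-5p: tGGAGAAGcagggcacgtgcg
MiR164a and miR164b are identical over all 21 bases, and miR164c differs from them by A21G, counted from the 5′ end with the base of miR164a first. All 3 therefore share 1 seed. None of the precursor genes MIR164A, MIR164B and MIR164C had a row in the table.

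The window of each target that best pairs with miR164a was located in the annotated transcripts, with a penalty of 1 for a mismatch and 0.5 for a G-U wobble. The windows of the 4 target genes in the table and of the 3 other listed targets are shown because NAC092 and the other targets differ in direction. Each is written 5′ to 3′ on the transcript, and capitals mark the bases that do not form a Watson-Crick pair with miR164a.
NAC092: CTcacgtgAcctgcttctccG
NAC1: AgcacgtAccctgcttctcca
CUC1: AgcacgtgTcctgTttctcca
CUC2: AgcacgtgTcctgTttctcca
NAC080: tTTacgtgccctgcttctcca
NAC100: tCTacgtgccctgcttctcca
AT3G12977: AgcaTgtAccctgcttctcca
All 7 windows lie in coding sequence of the last exon. That of NAC092 is at chr5:15858797-15858817 on the minus strand, that of NAC1 at chr1:20947142-20947162 on the minus strand, that of CUC1 at chr3:5111137-5111157 on the plus strand and that of CUC2 at chr5:21902301-21902321 on the minus strand.

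NAC092 had the weakest pairing of the 7 listed targets, with a penalty of 3.5. Its mismatches were G13A, C20T and A21C, with the wobble T1G, where the base of miR164a comes first, then its position from the 5′ end, then the base of the target. CUC1 and CUC2 have the same window of 21 bases and a penalty of 2, made of the mismatch A21A and the wobbles G8T and G13T. NAC1 had a penalty of 2 from the mismatches C14A and A21A. NAC080 and NAC100 had the lowest penalty, 1.5, but no row in the table, and AT3G12977, with 2.5, had none either.

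Over the transcripts of 37554 annotated genes, 6 genes had a window with a penalty of 2.5 or less, and all 6 were in the target list. NAC092 stood among 12 genes at 3.5, so that 19 genes had a penalty of at most 3.5. Of these 19, 7 were in the table, 5 with a higher and 2 with a lower value in ago1-27, NAC092 and ENODL2. That is near the share over the whole table, where 4711 of 6791 genes had a higher value. ENODL2, an early nodulin-like protein, was at 212 RPKM in ago1-27 and 318 in wild type. A window is a match of letters and not evidence that the transcript is cut.

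**Figure D1:**
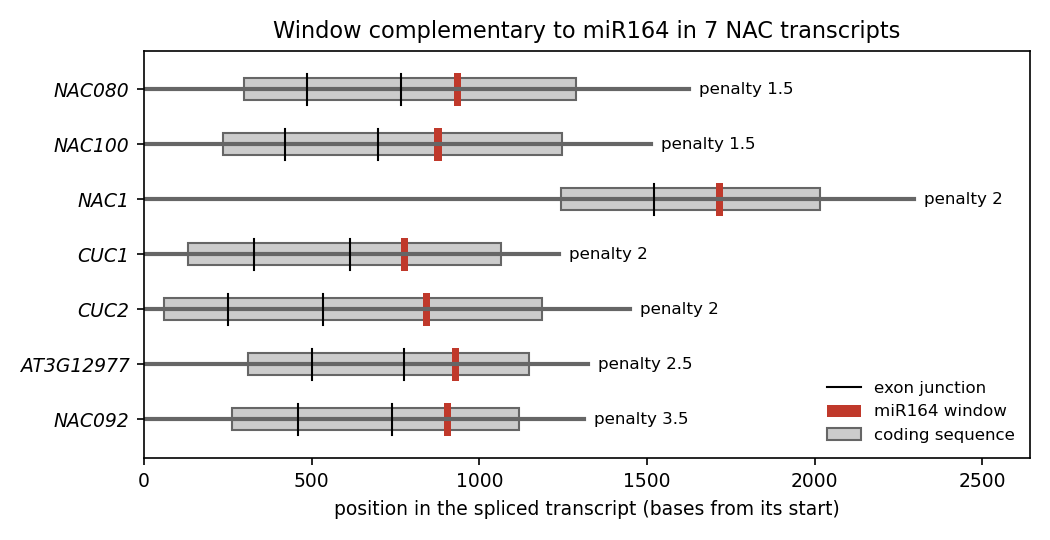
Spliced transcripts of the 7 listed miR164 targets, drawn from their start in bases, with the coding sequence in grey, exon junctions as black lines and the window complementary to miR164a in red. The window lies after the last junction in all 7, and its penalty ranges from 1.5 in NAC080 and NAC100 to 3.5 in NAC092.

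The files as a whole set limits on what follows. The table was a selection of differing genes: 4711 had a higher and 2080 a lower value in ago1-27, and the genotypes differed by about 1.5-fold or more in all but 1 of the rows. The absence of a gene from the table therefore says nothing of its level. Library totals read from the steps of low values were 11407616, 12164864 and 12294210 reads for ago1-27 and 10453032, 11196495 and 13887069 for wild type. Intervals below are exact 95% intervals, take the depth of 1 average library and reflect counting error alone. The selection of rows favours intervals of the genotypes that lie apart. How many of all rows have such intervals was not computed. AGO1 itself was at 175 RPKM in ago1-27 and 53.1 in wild type. The allele leaves a transcript, so this does not check the genotype labels. The threshold for a higher or lower call was a difference of 1 or more in log2(RPKM + 1), in a gene that reached RPKM of 1 in either genotype. By this rule 11.3% of the 6606 genes compared were higher and 10.5% lower. Median-of-ratios rescaling lowers every log2 ratio by 0.698, and leaves 219 genes higher and 1970 lower in place of 748 and 694.

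Of the 6 genes described, NAC1, CUC1, CUC2 and SAG13 had higher values in ago1-27, and NAC092 and NAP had lower ones. CUC1 did not reach RPKM of 1 in either genotype and was not compared. Of the other 5, 2 passed the threshold upwards (CUC2 and SAG13), against 11.3% of all genes, and 2 downwards (NAC092 and NAP), against 10.5%. NAC1 did not pass. All 6 kept their direction under median-of-ratios rescaling and under quantile normalization, but the first could not have reversed NAC092 and NAP. The sampled organ is a mixture of cells, in which fewer cells of a type and less RNA per cell cannot be told apart.

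NAC092 (AT5G39610, listed as NAC6 in the reference; TAIR10.1 chromosome 5, 15858398 to 15859911, minus strand, 3 exons) was at 0.935 RPKM in ago1-27 (0.535 to 1.58) and 15.1 RPKM in wild type (13.2 to 17.2). The intervals of the genotypes lie far apart. The level in ago1-27 was 16.2-fold lower (9.39 to 28.7), a difference of -3.06 on the log2(RPKM + 1) scale. These levels amount to about 14.7 reads in an average ago1-27 library and 234.9 in a wild-type one. Its ratio ranked 48 from the lowest among 6791 genes. By level, NAC092 stood at percentile 6.63 of all genes in ago1-27 and at percentile 71.9 in wild type.

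NAC1 (AT1G56010, chromosome 1, 20946571 to 20949281, minus strand) was at 2.98 RPKM in ago1-27 (2.37 to 3.71) and 1.77 RPKM in wild type (1.30 to 2.34). These intervals assume about 81.9 and 48.3 reads in an average library, and at that depth they do not overlap, but only narrowly. The ratio was 1.68 (1.17 to 2.47), a log2 difference of 0.52, and the ratio was 1.04 under median-of-ratios rescaling. The NAC1 values match 29 reads in a single ago1-27 library and 21 in a single wild-type library at a length of 852 bases, or multiples of these, and do not resemble a mean over libraries. With 29 and 21 reads the intervals of the levels and of the ratio would be wider than those given. Whether the levels would then still be apart was not computed, so the levels of NAC1 are not taken as apart here. Of the 10 genes it alone is overlapped by annotated genes, 2 on the opposite strand, neither with a row in the table, and reads of the pair cannot be told apart without strand.

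CUC1 (AT3G15170, chromosome 3, 5109782 to 5111608, plus strand, 3 exons) was at 0.983 RPKM in ago1-27 (0.568 to 1.67) and 0.0828 RPKM in wild type (0.00173 to 0.381). The intervals do not overlap, although in wild type CUC1 had no more than about 1.2 reads per library. The ratio of 11.9 accordingly has an interval of 2.29 to 626.

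CUC2 (AT5G53950, chromosome 5, 21901704 to 21903854, minus strand, 3 exons) was at 1.57 RPKM in ago1-27 (1.03 to 2.27) and 0.217 RPKM in wild type (0.0635 to 0.597). Both values rest on few reads, about 27.2 in ago1-27 and 3.7 in wild type per library. The ratio was 7.24 (2.33 to 26.3) and the log2 difference 1.08. This difference was 0.81 under median-of-ratios rescaling and 0.94 under quantile normalization, both below the threshold.

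The miR164 targets thus held both directions. In wild type NAC092 was the most abundant of the 4, and CUC1 had the lowest value, with an interval that overlapped that of CUC2. In ago1-27 NAC1 had the highest value, and the intervals of CUC2, CUC1 and NAC092 overlapped. Summed over the 4 genes, the level was 6.47 RPKM in ago1-27 and 17.2 RPKM in wild type. NAC092 made up most of the wild-type sum. Of the 7 listed targets 4 were in the table and 3 were compared, 1 higher past the threshold, against 11.3% of all genes, and 1 lower, against 10.5%, with a median log2 difference of 0.52 against 0.62 over all genes compared.

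**Figure D2:**
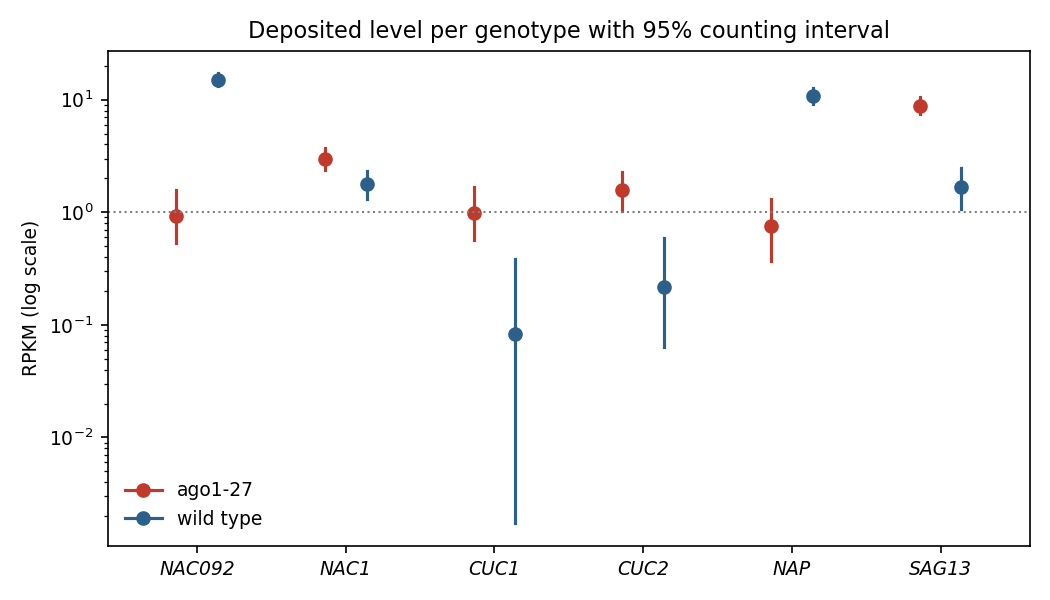
Deposited RPKM of the 6 genes on a log scale, ago1-27 in red and wild type in blue, with points for the single value per genotype and bars for its exact 95% counting interval at the depth of 1 average library. The dotted line marks RPKM of 1. NAC092 and NAP lie below it in ago1-27 and at 15.1 and 10.8 RPKM in wild type, while CUC1 and CUC2 are at 0.983 and 1.57 RPKM in ago1-27 and at 0.0828 and 0.217 RPKM in wild type.

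Genes that act with CUC1 and CUC2 at organ boundaries were mostly outside the table. Of 9 in the list 2 had a row, both with higher values in ago1-27. LOF1 (MYB117), a MYB factor of organ separation, was at 1.41 RPKM in ago1-27 and 0.163 RPKM in wild type, a ratio of 8.65 (1.59 to 62.9), and passed the threshold, as 11.3% of all genes did upwards. LOB, the founding gene of the lateral organ boundary family, was at 4.07 RPKM in ago1-27 and 1.92 RPKM in wild type and did not pass. LOF1 no longer passed after either rescaling. CUC3, a close relative of CUC1 and CUC2, had no row. Its best window had a penalty of 8.

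NAP (AT1G69490, chromosome 1, 26122080 to 26123514, plus strand, 3 exons) followed the direction of NAC092. It was at 0.758 RPKM in ago1-27 (0.367 to 1.31) and 10.8 RPKM in wild type (9.18 to 12.6). The level was 14.2-fold lower in ago1-27 (7.99 to 30.001), a log2 difference of -2.74. NAP is not a listed target of miR164, and its best window had a penalty of 8.

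The promoters of the 2 genes that fell past the threshold are shown because they moved together. Each runs from 250 bases before to 50 bases after the annotated start in TAIR10.1, 5′ to 3′. Capitals mark the G-box CACGTG, bound by bZIP and PIF factors, and the W-box core TTGAC, bound by WRKY factors, on either strand. The promoter of NAC092 is chr5:15859862-15860161 on the minus strand and that of NAP is chr1:26121830-26122129 on the plus strand.
NAC092: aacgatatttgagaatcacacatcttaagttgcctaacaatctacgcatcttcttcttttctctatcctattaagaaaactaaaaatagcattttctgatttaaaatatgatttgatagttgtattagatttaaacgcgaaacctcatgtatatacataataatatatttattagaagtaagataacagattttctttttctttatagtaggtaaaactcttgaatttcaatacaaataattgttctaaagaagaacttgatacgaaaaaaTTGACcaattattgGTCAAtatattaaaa
NAP: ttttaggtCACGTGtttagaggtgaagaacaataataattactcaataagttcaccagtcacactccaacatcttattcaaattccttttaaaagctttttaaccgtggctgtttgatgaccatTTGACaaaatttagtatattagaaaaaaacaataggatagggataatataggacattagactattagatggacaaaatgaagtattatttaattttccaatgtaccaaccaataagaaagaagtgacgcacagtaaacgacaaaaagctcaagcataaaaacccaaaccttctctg
NAP holds 1 G-box, which 7.68% of 27443 promoters of this length hold, and NAC092 holds none. The W-box core occurs 2 times in NAC092, at bases 22 and 36 after the annotated start, and 1 time in NAP, at base -126 before it. With 50.5% of all promoters holding it, its presence in both is no distinction. The 2 motifs do not overlap each other.

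The listed regulators of leaf senescence, NAP among them, mostly had lower values in ago1-27. The table held 8 of 22 listed regulators, 7 lower and 1 higher, and 4 of the 8 passed the threshold downwards, all of them NAC factors, against 10.5% of all genes. None passed upwards. The median log2 difference of the 8 was -1.40, against 0.62 over all genes compared. Directions of the 8 were the same after both rescalings, but median-of-ratios rescaling could not have reversed the 7 lower ones. NAP is 1 of these 8.

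NAC055 was at 0.133 RPKM in ago1-27 and 7.38 RPKM in wild type. It is a NAC factor of jasmonate and abscisic acid responses, 55.5-fold lower with an interval of 18.5 to 568. RD26, a dehydration-responsive NAC factor, was at 2.54 RPKM in ago1-27 and 27.7 RPKM in wild type, 10.9-fold lower (7.35 to 16.8). ORS1, a paralog of NAC092 that also promotes senescence, was at 1.20 RPKM in ago1-27 and 7.96 RPKM in wild type, 6.61-fold lower (4.08 to 10.8). All 3 therefore had the direction of NAC092 and NAP. The best windows for miR164a had penalties of 7.5 in NAC055, 7.5 in RD26 and 5.5 in ORS1, so the lower NAC genes include both 1 listed target and genes without such a window.

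The remaining regulators in the table stayed below the threshold. NAC046, which promotes chlorophyll loss, was at 1.22 RPKM in ago1-27 and 2.80 RPKM in wild type. EEL, a bZIP factor of abscisic acid responses, was the exception in direction, at 5.59 RPKM in ago1-27 and 2.41 RPKM in wild type. WRKY6 and PIF5 were 1.53-fold and 1.696-fold lower. EIN2, EIN3 and EIL1, which carry the ethylene signal upstream of NAC092, had no row.

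SAG13 (AT2G29350, chromosome 2, 12600914 to 12602556, plus strand, 5 exons), a short-chain dehydrogenase gene used as an early marker of senescence and also induced in defence, was at 8.84 RPKM in ago1-27 (7.42 to 10.5) and 1.67 RPKM in wild type (1.08 to 2.46). The ratio was 5.30 (3.45 to 8.50) and the log2 difference 1.88. SAG13 had the highest level of the 6 genes in ago1-27, while in wild type its interval overlapped that of NAC1. Its difference stayed past the threshold, at 1.35 under median-of-ratios rescaling and 1.57 under quantile normalization.

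**Figure D3:**
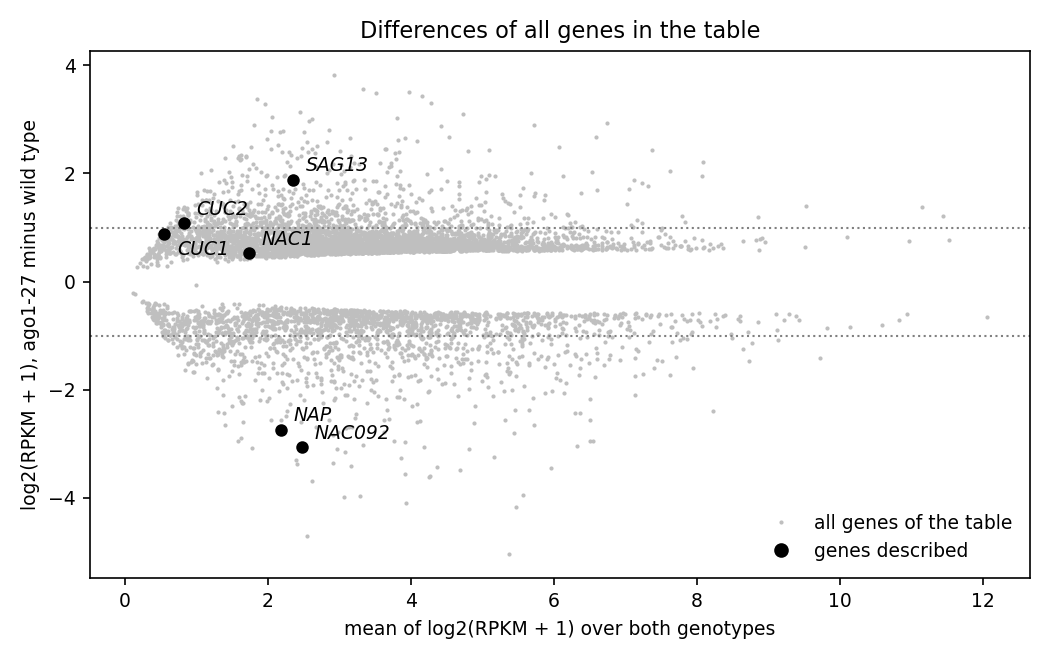
Difference in log2(RPKM + 1), ago1-27 minus wild type, against the mean log2(RPKM + 1) of both genotypes for the 6791 genes in grey, with the 6 genes described in black and dotted lines at differences of 1 and -1. The empty band around 0 reflects the selection of the table. NAC092 and NAP lie low in the lower cloud, SAG13 high in the upper one, and NAC1 at its lower edge.

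SAG13 was not alone among the senescence-associated output genes. The table held 12 of 22 listed output genes. Of these 9 had a higher and 3 a lower value in ago1-27, against 4711 higher of all 6791 genes. Of the 11 compared, 6 passed the threshold upwards, against 11.3% of all genes, and 1 downwards, against 10.5%. The median log2 difference was 1.20, against 0.62 over all genes compared. Under median-of-ratios rescaling 2 passed upwards and 3 downwards, and the ratio of SAG18 was 0.939 in place of 1.52.

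SAG21, a late-embryogenesis-abundant-like protein of stress responses, was at 585 RPKM in ago1-27 and 125 RPKM in wild type, a ratio of 4.69 (4.43 to 4.97). GLN1;1, a cytosolic glutamine synthetase of nitrogen remobilization, was at 67.0 RPKM in ago1-27 and 21.0 RPKM in wild type, a ratio of 3.19 (2.85 to 3.58). SAG14, a blue copper-binding protein, had a ratio of 3.098 (2.75 to 3.496), and SEN4 (XTH24), a xyloglucan-modifying enzyme of the cell wall, one of 3.095 (2.79 to 3.44). All 4 passed the threshold, but under median-of-ratios rescaling GLN1;1, SAG14 and SEN4 did not.

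SEN1, a dark-inducible gene, went the other way. It was at 13.1 RPKM in ago1-27 and 55.1 RPKM in wild type, 4.21-fold lower (3.52 to 5.03), and was the single output gene past the threshold downwards. RNS3, a ribonuclease, was at 3.23 RPKM in ago1-27 and 5.90 RPKM in wild type and did not pass. SAG12, a cysteine protease, SAG29, a sugar transporter also called SWEET15, and BFN1, a nuclease, had no row. BFN1 and SAG29 are known as genes that NAC092 activates, so no value for these outputs of NAC092 can be set beside its own.

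Chlorophyll breakdown was represented by 2 of 11 listed genes. NYC1, a chlorophyll b reductase, was at 75.3 RPKM in ago1-27 and 127 RPKM in wild type, 1.69-fold lower (1.597 to 1.797). ACD2, the red chlorophyll catabolite reductase, was at 38.3 RPKM in ago1-27 and 57.7 RPKM in wild type, 1.51-fold lower (1.37 to 1.66). Neither passed the threshold on the deposited scale, and both passed it under median-of-ratios rescaling. SGR1, the magnesium dechelatase that starts the pathway, had no row.

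**Figure D4:**
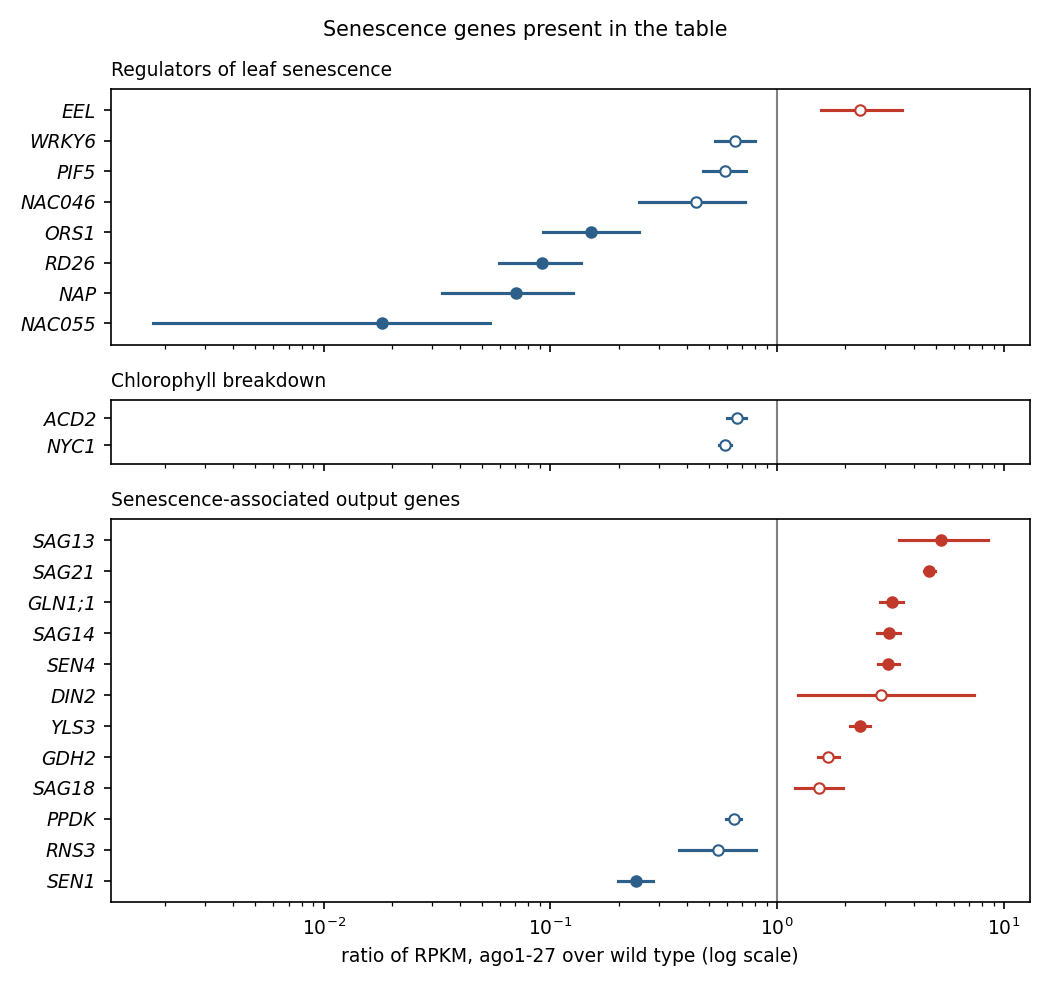
Ratio of RPKM, ago1-27 over wild type, on a log scale for the senescence regulators, chlorophyll breakdown genes and output genes present in the table, with 95% counting intervals. Filled points passed the threshold, open points did not, red marks a ratio above 1 and blue one below. Of the regulators 7 of 8 lie below 1, and of the output genes 9 of 12 lie above it. Of all 6791 genes 2080 lie below 1 and 4711 above it.

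Leaf and flower markers also differed between the genotypes. Of 13 markers of green leaf tissue 7 were in the table, 6 with lower values in ago1-27 and 1 with a higher one. Of the 6 lower ones 4 were past the threshold, against 10.5% of all genes. The summed level of the 7 was 4752 RPKM in ago1-27 and 7712 RPKM in wild type. RCA alone made up most of the wild-type sum. Of 12 flower markers 3 were in the table, AP1, LFY and SEP4, with a sum of 8.13 RPKM in ago1-27 and 12.7 RPKM in wild type. SEP4 sets the direction of this sum, at 6.22 RPKM in ago1-27 and 12.5 RPKM in wild type. AP1 and LFY had higher values in ago1-27. LFY and SEP4 did not pass the threshold, and AP1 was too low to be compared. The sepal and petal identity gene AP1 was at 0.733 RPKM in ago1-27 and 0.0779 RPKM in wild type, and LFY, its upstream regulator, at 1.17 RPKM in ago1-27 and 0.151 RPKM in wild type. The near-zero wild-type values of AP1 and LFY go against the label of flower buds. The other 9 markers, among them AP3, PI and AG, had no row and give no check of it. The AP1 value of wild type lies near 0, as do those of CUC1 and CUC2, and the part of tissue composition in the differences of the genes described was not tested.

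Within the whole NAC family NAC092, NAP, CUC1 and CUC2 lay near the ends of the range of ratios, while NAC1 did not. Of 100 annotated NAC genes 28 were in the table, 14 with a higher and 14 with a lower value in ago1-27. Of the 26 compared, 4 passed the threshold upwards, against 11.3% of all genes, and 8 downwards, against 10.5%. The median log2 difference was -0.67, against 0.62 over all genes compared. The 8 include NAC092, NAP, NAC055, RD26 and ORS1, and the 4 include CUC2, so these counts repeat genes given above. NAC055 had the lowest ratio and NAC092 the next lowest, followed by NAP, RD26 and ORS1. CUC1 had the highest ratio and CUC2 the third highest, with NAC038 between them at 0.919 RPKM in ago1-27 and 0.0892 RPKM in wild type. NAC090 had the largest positive difference of the 28 on the log2(RPKM + 1) scale, at 4.38 RPKM in ago1-27 and 0.687 RPKM in wild type. Under median-of-ratios rescaling 13 of the 28 had a ratio above 1.

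**Figure D5:**
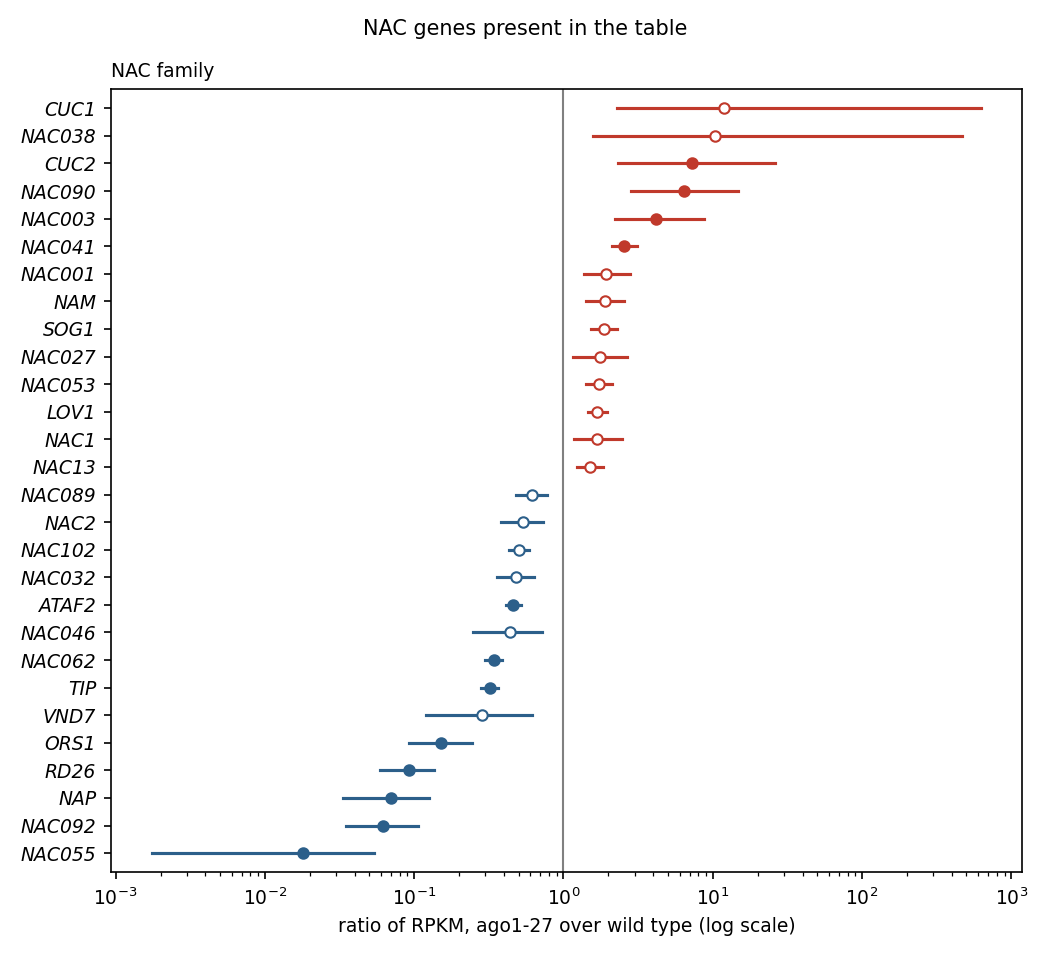
Ratio of RPKM, ago1-27 over wild type, on a log scale for the 28 NAC genes in the table, with 95% counting intervals, filled points past the threshold and open points not. The intervals of CUC1, NAC038 and NAC055 are wide because 1 of their 2 values amounts to a few reads.

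With 2 samples, likeness to the pattern of NAC092 is likeness of the ratio alone. NAC092 itself is below RPKM of 1 in ago1-27. Restricted to genes with RPKM of 1 or more in both genotypes, which leaves out NAC092 and others with ratios closer to its own, the nearest ratios were those of BEE3, AT2G20670 and AT5G51440. BEE3, a basic helix-loop-helix factor of brassinosteroid responses, was at 1.73 RPKM in ago1-27 and 28.2 RPKM in wild type, 16.3-fold lower. AT2G20670 and AT5G51440 were 16.6-fold and 17.0-fold lower in ago1-27.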

How the data were processed

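The submitters' processing notes list TopHat2 2.0.11 and TAIR10. How reads were counted, how multiple alignments were handled and how rows were selected is not given in the sources used here. Per the file headers, the authors deposited an RPKM value for each genotype. Their deposited ratio, ago1-27 over wild type, equals the quotient of these values to within a relative difference of 4.17e-08. Of 6791 identifiers, 6772 matched the TAIR10.1 annotation. With 1 value per genotype no test was run, and alternatives were other pseudocounts, filters on low values and rescalings. The members and lists were chosen with earlier results of these data known. All 10 genes, AGO1, up to 6 genes per list with the largest absolute log2 difference and the 3 ratios nearest NAC092 were to be named. ENODL2, WRKY6, PIF5, SAG18, RNS3 and NAC038 fall outside this rule and were chosen after their values were seen. A pseudocount of 1 understates changes of low genes, so ratios of RPKM are printed. Reads behind a value were estimated from TAIR10.1 lengths and the mean library totals of 11955563 (ago1-27) and 11845532 (wild type) reads. Intervals are exact (Clopper-Pearson for ratios, Poisson for levels). Tested on simulated data for 6772 genes, 3 of 3 library totals were recovered. Each simulated gene held whole reads of 1 library, so this is no check for values that combine libraries. In the data 14 to 18 genes fitted each ago1-27 total and 19 to 26 each wild-type total. The next total fitted 3 genes in either genotype. Read numbers and intervals rest on these totals. Sequences come from RefSeq TAIR10.1, and 59135 transcripts were searched. Scripts ran under Python 3.11.15 with scipy 1.17.1, pandas 2.3.3, numpy 2.4.6 and matplotlib 3.10.9.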

Additional observations from a re-analysis of the deposited data

How the results depend on the processing

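All 6 genes kept their direction with pseudocounts of 0.1 and 0.5 and none, under median-of-ratios rescaling and under quantile normalization. A pseudocount cannot change a direction, and median-of-ratios rescaling could not reverse the 2 lower genes. The 2 lower genes, NAC092 and NAP, stayed past the threshold under all 7 alternatives. Without a pseudocount their log2 differences were -4.01 and -3.83. Smaller pseudocounts and median-of-ratios rescaling can only deepen a lower difference, and the filters could not drop these 2 genes. Only quantile normalization could have ended their call. The 2 higher genes became 1 with RPKM of at least 5, 1 with median-of-ratios and 1 with quantile normalization, SAG13 in each case. Of the miR164 targets the 1 higher gene became 0 under the same 3 settings. Higher genes of the whole table, 748, became 1350 with a pseudocount of 0.1, 1425 without one, 219 with median-of-ratios and 395 with quantile normalization. Lower genes, 694, became 1970 and 1212 after these 2 rescalings, which move a table with a median log2 ratio of 0.698 towards 0 by construction. Lower senescence regulators, 4, became 7 with median-of-ratios rescaling, and higher ones, 0, became 1 with pseudocounts of 0.1, 0.5 and none. Higher output genes, 6, became 2 with median-of-ratios rescaling, and lower ones, 1, became 3 and, after quantile normalization, 2. Lower chlorophyll breakdown genes, 0, became 2 with median-of-ratios rescaling. Higher boundary genes, 1, became 2 with a pseudocount of 0.1 or none and 0 with RPKM of at least 5 or either rescaling. Higher NAC genes, 4, became 1 with RPKM of at least 5 or either rescaling, and lower ones, 8, became 14 with median-of-ratios and 13 with quantile normalization. No paired analysis was possible because the table holds 1 value per genotype, and for the same reason no replicate was left out. CUC1 and CUC2 rest on fewer than 5 wild-type reads in an average library, which limits their ratios.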

Other observations

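The promoters of NAC092 and of its relative ORS1, both lower in ago1-27, share the stretch TGACCAATTATTGGT of 15 bases, found after their values were seen. It starts at base 23 after the start of NAC092 on chromosome 5 and at base -54 before that of ORS1 on chromosome 3. It was picked as the longest stretch that these 2 promoters share, so both hold it by construction. Of 27443 promoters of this length 2 hold it on either strand, the same 2 it was taken from. How often other pairs of promoters share a stretch as long was not tested. The promoter of ORS1 holds neither a G-box nor a W-box core.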
